A study of Mus musculus with 6 samples.

Results

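Membrane repair genes were read in 6 heart RNA samples from male mice of the Mdx/Utrn dKO genotype, a double mutant for dystrophin and its relative utrophin. The group is made of 7 genes, Dysf, Myof, Trim72, Anxa1, Anxa2, Anxa5 and Anxa6, chosen by gene symbol from 50385 rows of the deposited count table. All 7 passed the filter on low counts, among 20472 genes tested. Mice were 2 to 3 months old and were gavaged daily over 12 weeks. Of the 6 samples, 3 come from setanaxib treatment, which blocks the oxidase Nox4, at a daily 60 mg/kg, and 3 from corn oil, the vehicle. Both groups carry the double mutation, and no wild-type heart was analysed here.

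The sarcolemma of heart muscle tears under load when the dystrophin complex is missing, and tears are closed by a calcium-driven patch of vesicles and membrane-binding proteins. Trim72 (also called MG53) is a muscle E3 ligase that gathers vesicles at the tear and forms oligomers when the cytosol is oxidised. Dysferlin (Dysf) is a calcium-sensing C2-domain protein of the muscle membrane, and mutations in it cause limb-girdle muscular dystrophy. Myoferlin (Myof) is its relative, used in myoblasts, endothelium and other cells that remodel their membranes. Annexins bind acidic lipids when calcium enters: annexin A1, A2 and A5 are made by many cell types, among them fibroblasts and macrophages, and annexin A6 is also plentiful in heart muscle.

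No member differed between setanaxib and vehicle past the threshold. In edgeR, 0 of 7 had an adjusted p under 0.05, against 0.00488% of all genes tested. DESeq2 called 0 of 7, against 2.29% of the genes it tested (1.44% lower), and limma-voom called 0 of 7, against 0% of all genes. At an unadjusted p under 0.05, edgeR had 1 member, Anxa2, lower and 0 higher, where 4.69% of all genes were lower and 8.46% differed in either direction. All 7 fitted log2 fold changes were below 0, as were 48.4% of all genes. Their median was -0.30, beside 0.01 over all genes tested. The groups did not overlap for 3 members, Anxa2, Anxa5 and Trim72, each lower with setanaxib, where this held for 9.46% of all genes. None of the 7 was higher without overlap, as 8.11% of all genes were. These counts describe the list and are no test of it.

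Libraries held 110803307 to 154003318 estimated counts, and each member held between 1189 and 22443 in every library. Differences among libraries therefore limit the precision more than counting does. Levels are given in CPM, a gene's share of its library's counts, scaled between libraries by the trimmed mean of M values (TMM). Setanaxib replicate 3 stood apart from the other 5 libraries: the summed CPM of 2 tested airway and lung epithelium markers was 601 there and 0.102 to 19.9 elsewhere, and that of 3 tested atrial markers was 2914 against 66.5 to 568. It was also the only library above 10 estimated counts for each of the adipocyte markers Adipoq, Plin1 and Lep. Some counts and medians of the members and the related lists are also given without this library. Heart muscle was the main tissue in all 6 libraries, with 10 of 10 cardiomyocyte markers present at a summed 67835 to 93248 CPM. Skeletal muscle myosins Myh1, Myh2 and Myh4 were at 0 counts in every library. Of the same marker list, Actn3 had 21 counts in setanaxib replicate 1 only and Tnnt3 had 18 in vehicle replicate 3 only. Mylpf was at 0.116 to 0.184 CPM with vehicle and 0.236 to 0.299 CPM with setanaxib, and Ckm at 661 to 1441 CPM. The labels give each heart sample a number of its own without saying that it marks an animal, so p-values measure the spread between these 6 samples. The knocked-out genes Dmd and Utrn gave reads in every library, 108 to 178 and 60.8 to 106 CPM, and a whole-gene count does not check the genotype. Nox4, whose product setanaxib targets, was at 1.06 to 5.99 CPM.

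**Figure D1:**
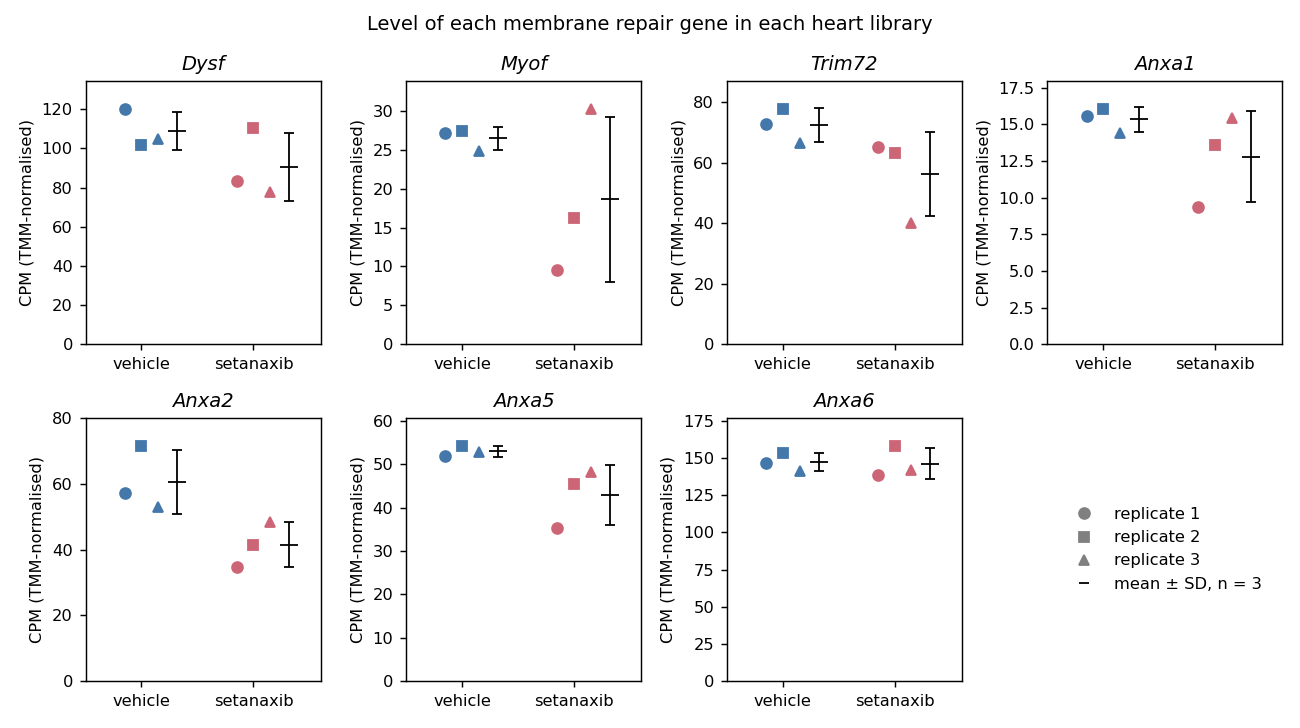
TMM-normalised CPM of each of the 7 genes (y axis, from 0) in each library, with vehicle in blue and setanaxib in red; the marker shape is the replicate, and the black bar is the mean ± SD of 3 libraries. Anxa2, Anxa5 and Trim72 have no overlap between groups, the setanaxib libraries of Myof run from 9.49 to 30.2 CPM, and Anxa6 stays between 139 and 158 CPM.

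Promoter windows are shown for 3 members whose library patterns differ. Anxa2 and Trim72 had no overlap between groups, but Anxa2 was lowest in setanaxib replicate 1 and Trim72 in setanaxib replicate 3. Myof overlapped and was highest in setanaxib replicate 3. Each window runs 5′ to 3′ on the gene's strand from 250 bases before to 50 bases after a RefSeq start site on GRCm38.p6, an older build than the GRCm39 named for the counts. Windows were found for 6 of the 7 members by symbol. Capitals mark matches, on either strand, to any of 7 motifs: TATAAA, the GC box GGGCGG, the E-box CANNTG, the AP-1 site TGANTCA, the TEAD site GGAATG, the CArG box and the MEF2 site. The Anxa2 window lies at chr9:69453433-69453732 on the + strand, the Trim72 window at chr7:128004128-128004427 on the + strand and the Myof window at chr19:38043528-38043827 on the - strand.
Anxa2: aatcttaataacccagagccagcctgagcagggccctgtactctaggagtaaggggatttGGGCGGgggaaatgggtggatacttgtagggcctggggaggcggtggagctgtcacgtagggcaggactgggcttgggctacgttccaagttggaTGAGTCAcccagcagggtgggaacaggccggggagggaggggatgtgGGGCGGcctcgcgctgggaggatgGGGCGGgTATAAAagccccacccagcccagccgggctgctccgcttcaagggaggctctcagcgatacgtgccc
Trim72: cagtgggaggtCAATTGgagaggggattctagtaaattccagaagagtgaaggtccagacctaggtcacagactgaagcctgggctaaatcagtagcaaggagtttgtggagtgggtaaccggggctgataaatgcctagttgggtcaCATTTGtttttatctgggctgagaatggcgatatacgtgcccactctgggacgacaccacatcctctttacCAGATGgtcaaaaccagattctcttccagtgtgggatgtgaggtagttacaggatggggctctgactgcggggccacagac
Myof: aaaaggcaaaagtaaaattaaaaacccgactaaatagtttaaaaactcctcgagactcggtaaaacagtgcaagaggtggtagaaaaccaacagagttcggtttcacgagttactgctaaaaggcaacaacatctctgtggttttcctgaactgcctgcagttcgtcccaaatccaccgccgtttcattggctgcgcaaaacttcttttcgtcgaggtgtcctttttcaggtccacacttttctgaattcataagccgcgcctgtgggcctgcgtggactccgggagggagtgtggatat
The Anxa2 window holds 3 GC boxes, 1 AP-1 match and 1 TATAAA, and 63.7% of its bases are G or C. The Trim72 window holds 3 E-boxes and no other match, at 50.7% G or C. No match to the 7 motifs was present in the Myof window, at 46.3% G or C. Anxa5, also without overlap between groups, has a window of 60.3% G or C with 1 E-box, 1 CArG box and no other match. Among all 32851 promoter windows, 35.7% hold a GC box, 7.81% an AP-1 match, 13.6% a TATAAA, 72.3% an E-box and 1.63% a CArG box. A match describes the letters of the window, not a bound site.

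Dysferlin, the membrane calcium sensor of muscle, measured 120, 102 and 105 CPM in vehicle replicates 1, 2 and 3. Setanaxib replicates 1, 2 and 3 had 83.1, 110 and 77.7 CPM. Replicates 1 and 3 lay below every vehicle library and replicate 2 lay among them, so the groups overlapped. Vehicle averaged 109 ± 9.67 CPM and setanaxib 90.4 ± 17.4 CPM (SD, n = 3 each). The log2 fold change was -0.27 (SE 0.15, 95% interval -0.64 to 0.10, edgeR adjusted p = 0.699). Leaving out setanaxib replicate 2 moved it to -0.44 (unadjusted p = 0.0120, adjusted p = 0.361), and leaving out setanaxib replicate 3 moved it to -0.17.

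Trim72, the vesicle-gathering ligase, gave 72.8, 77.7 and 66.6 CPM in the vehicle libraries. The setanaxib libraries gave 65.1, 63.2 and 40.2 CPM. All 3 setanaxib libraries were below all 3 vehicle libraries, 2 of them only narrowly, and replicate 3 was far below the rest, at 55.5% of the vehicle mean. Means were 72.4 ± 5.56 and 56.2 ± 13.9 CPM (SD, n = 3), a log2 fold change of -0.37 (SE 0.20, 95% interval -0.84 to 0.11, edgeR adjusted p = 0.685). Without setanaxib replicate 3 the log2 fold change was -0.17 (adjusted p = 0.442). The groups still did not overlap then.

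Both muscle genes were lowest in setanaxib replicate 3, as was the summed level of the 10 cardiomyocyte markers, with 67835 CPM. That sum ran from 82993 to 88502 CPM over the vehicle libraries and was 91074 and 93248 CPM in setanaxib replicates 1 and 2. Dysf did not follow this sum in setanaxib replicate 1, where it was at 83.1 CPM, near its 77.7 CPM in setanaxib replicate 3. Ttn alone gave 35144 of the 67835 CPM. Among these 10 markers, Myh6 and Ryr2 were lowest in vehicle replicate 2 and the others in setanaxib replicate 3. The sum over smooth muscle and pericyte genes was lowest in that library as well, with 458 CPM, where the vehicle libraries held 646 to 793 CPM and the setanaxib replicates 1 and 2 held 680 and 730 CPM. Of these 6 markers, Acta2 and Rgs5 were lowest there and the other 4 were not. The part of either marker list in the levels of Dysf and Trim72 was not tested. In bulk tissue, fewer cells of a type and less RNA per cell cannot be told apart. Both genes also share exon bases with antisense genes, 352 bases with Gm15475 and 105 with Gm33024 for Dysf and 617 bases with Gm15533 for Trim72. Gm15475 was at 3.22 to 8.47 CPM and Gm15533 at 6.43 to 12.4 CPM over the 6 libraries, both well under their partners. No strand setting is given in the sources used here, so reads in these shared bases cannot be assigned. None of the other 5 members shared exon bases with another gene. Apart from these antisense genes, no other gene matched a member over 150 bases, the read length, at 95% identity or more.

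Myoferlin, the ferlin of remodelling cells, had the widest spread of the group with setanaxib. Vehicle libraries held 27.2, 27.4 and 24.8 CPM, and setanaxib libraries 9.49, 16.2 and 30.2 CPM. Setanaxib replicates 1 and 2 were at 35.8% and 61.2% of the vehicle mean, whereas replicate 3 was above every vehicle library. Within vehicle the SD was 5.5% of the mean, and within setanaxib it was 56.8%. The log2 fold change was -0.51 (SE 0.39, 95% interval -1.45 to 0.44, edgeR adjusted p = 0.797). Without setanaxib replicate 3 it was -1.04 (SE 0.24, unadjusted p = 0.00604, adjusted p = 0.217), and without setanaxib replicate 1 it was -0.19 (adjusted p = 0.840). This member's difference thus depends on which setanaxib library is kept, and it passed the threshold in none of these fits.

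Annexin A2, which binds the inner membrane leaflet as a complex with S100A10, had the largest log2 fold change of the 7 by size in the edgeR fit of all 6 libraries. Myof exceeded it with limma-voom (-0.66 against -0.55), without setanaxib replicate 3 (-1.04 against -0.67) and without vehicle replicate 2 (-0.48 against -0.41). Trim72 exceeded it without setanaxib replicate 1 (-0.49 against -0.44). Vehicle levels of Anxa2 were 57.1, 71.5 and 52.9 CPM, and its setanaxib levels 34.6, 41.3 and 48.4 CPM. Every setanaxib library was below every vehicle library, with the nearest pair at 48.4 and 52.9 CPM. Means were 60.5 ± 9.79 and 41.4 ± 6.91 CPM (SD, n = 3). The log2 fold change was -0.55 (SE 0.17, 95% interval -0.95 to -0.14), which is a 1.46-fold higher level with vehicle. The unadjusted p was 0.0166, and the edgeR adjusted p of 0.472 did not pass. The unadjusted p was 0.0837 with library totals as the only scaling and 0.0567 without vehicle replicate 2. DESeq2 gave an adjusted p of 0.0913. An exact two-sided permutation test of 3 samples against 3 cannot give a p below 0.1. Its partner S100a10 had vehicle levels of 7.43, 9.90 and 8.28 CPM and setanaxib levels of 7.27, 7.77 and 6.68 CPM, with overlapping groups (log2 fold change -0.24, SE 0.15, edgeR adjusted p = 0.726).

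Annexin A5, which crystallises into a lattice on exposed phosphatidylserine, was the tightest member within vehicle. The vehicle libraries held 51.9, 54.2 and 52.7 CPM, and the setanaxib libraries 35.2, 45.4 and 48.3 CPM. The groups did not overlap, and setanaxib replicate 1 was the lowest library. The log2 fold change was -0.30 (SE 0.13, 95% interval -0.62 to 0.01, edgeR adjusted p = 0.615). Without setanaxib replicate 1 it was -0.18.

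Annexin A1, which also restrains leukocyte entry, had vehicle levels of 15.6, 16.0 and 14.4 CPM. Its setanaxib levels were 9.35, 13.6 and 15.4 CPM. Setanaxib replicate 3 lay within the vehicle range, so the groups overlapped. The log2 fold change was -0.26 (SE 0.19, 95% interval -0.73 to 0.20, edgeR adjusted p = 0.777). It was -0.09 without setanaxib replicate 1 and -0.42 without setanaxib replicate 3.

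Annexin A6, a double-core annexin that forms the repair cap, gave the narrowest interval. Vehicle libraries had 147, 154 and 141 CPM and setanaxib libraries 139, 158 and 142 CPM. The groups overlapped over nearly their whole range. The log2 fold change was -0.01 (SE 0.09, edgeR adjusted p = 0.990). Its 95% interval, -0.23 to 0.21, spans a level with setanaxib of 0.853 to 1.16 times that with vehicle. Its sign turned in 5 of the 13 alternative fits.

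**Figure D2:**
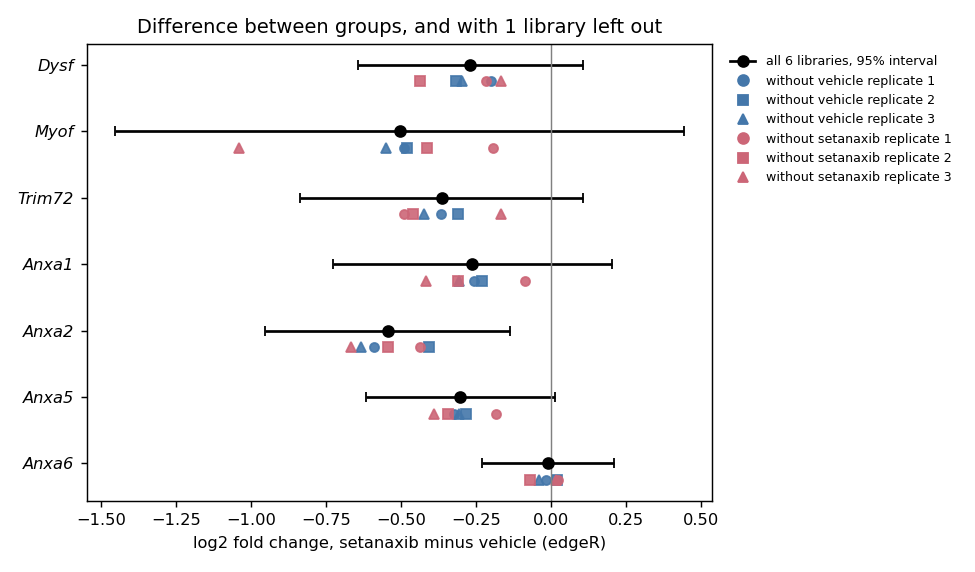
Log2 fold change of setanaxib minus vehicle for each gene (x axis; 0 means equal levels). Black points with bars are edgeR estimates from all 6 libraries with 95% intervals, and small markers are the estimates with 1 library left out, coloured by its group and shaped by its replicate. The interval of Anxa2 alone lies below 0, and the estimate for Myof runs from -1.04 to -0.19 as setanaxib replicate 3 or 1 is left out.

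Setanaxib replicate 3 held the most airway, atrial and adipocyte transcripts, but vehicle replicates 1 and 3 held some too. Airway markers summed to 4.39 and 19.9 CPM there, and to 0.102 and 0.114 CPM in setanaxib replicates 1 and 2. Leaving out setanaxib replicate 3 thus did not even out these transcripts. Their median log2 fold changes were then -7.30 (airway), -3.51 (atrial) and -3.41 (adipocyte). In this fit 3 of 7 members had an unadjusted p under 0.05, all lower, where 7.91% of all genes were lower by this rule. These were Myof, Anxa2 and Anxa5, at a log2 fold change of -1.04 (SE 0.24) for Myof, -0.67 (SE 0.16) for Anxa2 and -0.39 (SE 0.12) for Anxa5. The groups then did not overlap for 5 members, Myof, Trim72, Anxa1, Anxa2 and Anxa5, where 18.0% of all genes were lower without overlap. Again 0 of 7 passed after adjustment, against 0.00479% of all genes. The smallest adjusted p of a member was 0.217, for Myof.

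Across libraries the members took different shapes. Myof, Anxa1, Anxa2, Anxa5 and Anxa6 were lowest in setanaxib replicate 1, and Dysf and Trim72 in setanaxib replicate 3. Over the 6 libraries, log2 CPM of Myof had a Pearson r of 0.96 with Anxa1, 0.93 with Anxa5 and 0.83 with Anxa2, but 0.24 with its relative Dysf and -0.17 with Trim72. Dysf and Trim72 had an r of 0.72 with each other. These values describe 6 libraries that share their scaling and the difference between groups. Dysf exceeded Myof by 3.72 to 4.42 times in CPM with vehicle, and by 8.76, 6.80 and 2.57 times in setanaxib replicates 1, 2 and 3. The ratio of the 2 ferlins in CPM was thus steady with vehicle and spread widely, on both sides of the vehicle range, with setanaxib.

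Summed markers of activated fibroblasts and of macrophages were lower in every setanaxib library than in every vehicle library. The fibroblast and endothelial sums overlapped between groups. Fibroblast markers summed to 1038 to 1365 CPM over the vehicle libraries and to 628, 829 and 1055 CPM in setanaxib replicates 1, 2 and 3, so that replicate 3 reached the vehicle range. All 8 of 8 were lower, 5 at an unadjusted p under 0.05. Activated fibroblast markers summed to 436 to 622 CPM with vehicle and to 173, 261 and 349 CPM, with 6 of 6 lower and 4 at an unadjusted p under 0.05. Macrophage markers summed to 340 to 434 CPM with vehicle and to 219, 275 and 248 CPM, with 8 of 9 lower and 8 at an unadjusted p under 0.05. Of all genes tested, 48.4% were below 0 and 4.69% were lower at an unadjusted p under 0.05. None of these 3 lists had a marker at 0. Within the setanaxib group, 7 of 8 fibroblast markers were lowest in replicate 1 and highest in replicate 3, as were Myof, Anxa1, Anxa2 and Anxa5, and Pi16 was not. Some markers of other cell types had this order too, among them Csf1r, Pecam1, Emcn and Pdgfrb, and others, such as C1qa and Kdr, did not. The share of all genes with this order was not counted. The activated fibroblast sum also had this order, carried by Fn1, with 107, 149 and 262 CPM, and Comp. The other 4 did not share it: Postn and Meox1 were highest in replicate 2, and Thbs4 and Cilp were lowest in replicate 3. Endothelial markers summed to 774 to 873 CPM with vehicle and to 656, 843 and 769 CPM with setanaxib. The part of fibroblasts or macrophages in the levels of these 4 members was not tested. Without setanaxib replicate 3, 7.91% of all genes were lower at an unadjusted p under 0.05. Of the markers, 5 of 8 fibroblast, 5 of 6 activated fibroblast and 7 of 9 macrophage genes were lower by this rule. Airway, atrial and adipocyte transcripts were highest in setanaxib replicate 3, where Myof was highest, and their part was not tested either.

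**Figure D3:**
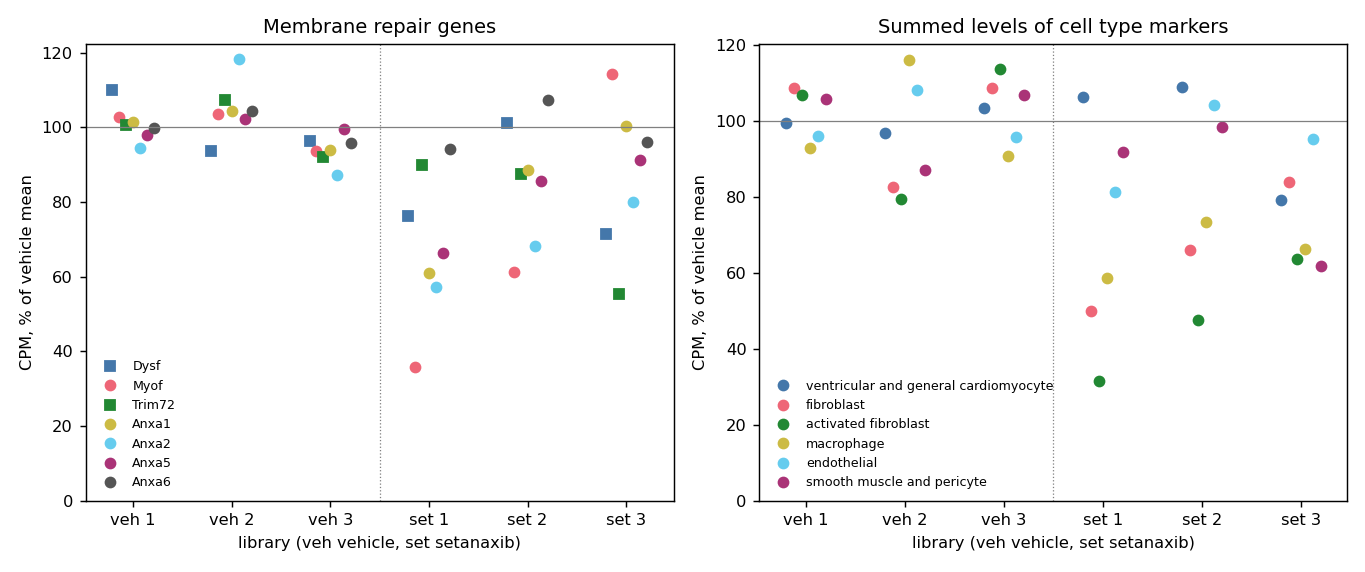
Left, CPM of each membrane repair gene in each library as a percentage of its vehicle mean, with squares for Dysf and Trim72; right, the summed CPM of 6 lists of cell type markers on the same scale. Myof goes from 35.8% in setanaxib replicate 1 to 114% in setanaxib replicate 3, and Trim72 from 90.0% to 55.5%.

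Compared per kilobase of merged exons (GENCODE M21), the level with vehicle was highest for Anxa6, at 59.2 CPM per kilobase, followed by Anxa2 at 41.8, Trim72 at 32.4, Anxa5 at 30.6, Dysf at 15.1, Anxa1 at 8.10 and Myof at 3.70. Trim72, at 29.8 to 34.8, and Anxa5, at 30.0 to 31.3 CPM per kilobase, overlapped over the vehicle libraries. All other neighbours in this order were separate. With setanaxib the order was the same, from Anxa6 at 58.8 to Myof at 2.61 CPM per kilobase, but Anxa2, Trim72 and Anxa5, at 28.6, 25.2 and 24.8, overlapped one another. The exon lengths come from GRCm38 and may differ from those behind the counts.

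Genes with the most similar library patterns were sought for each member among 8268 genes whose average log2 CPM was 3 or more, by Pearson r of log2 CPM over 6 libraries. These r are the highest of a wide search over few libraries that share their scaling, and they are a description only. For Anxa2 these were Ly6e (r = 0.996), the cytoskeletal actin Actb (0.995) and Dipk2a (0.992). Anxa5 was matched by the LIM protein gene Fhl3 (0.999), the leukocyte phosphatase Ptprc (0.996) and Trim65 (0.996). For Myof they were the phospholipase Pld2 (0.999), Adgrl2 (0.997) and Zbtb14 (0.997). The list for Trim72 was Lamtor1 (0.997), Zfp770 (0.997) and the Notch ligand Jag2 (0.995). Anxa1 was nearest to Rbbp5, Arhgap18 and Cpeb1 (0.995 each). Dysf had Tpd52l2 (0.969), the protease inhibitor cystatin C gene Cst3 (0.967) and Eml1 (0.966), and Anxa6 had Tmed1 (0.973), Gpam (0.961) and Kdm7a (0.953).

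Other genes of membrane repair were read as 8 related lists with 59 genes, of which 55 were tested. Of these, 39 had a log2 fold change below 0 and 16 above, with a median of -0.13. Over all genes, 48.4% were below 0 and the median was 0.01. In edgeR 0 of the 55 passed after adjustment over all genes. At an unadjusted p under 0.05, 4 were lower and 3 higher, against 4.69% and 3.76% of all genes. The groups did not overlap for 13 lower and 4 higher genes, against 9.46% and 8.11% of all genes. DESeq2 called 3, Anxa4, Anxa11 and Myh9, against 2.29% of the genes it tested. Without setanaxib replicate 3 there were 10 lower and 2 higher at an unadjusted p under 0.05, against 7.91% and 5.67% of all genes. The same shares of all genes stand beside the counts of each list below.

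Among the other annexins, 7 of 8 were tested, 3 with values below 0 and 4 above (median log2 fold change 0.14). Their median was -0.10 without setanaxib replicate 3. Anxa8, named after its values were seen, had 7.43 CPM in that library and 0.456 to 1.43 CPM in the other 5. Anxa11, an annexin that tethers RNA granules to lysosomes, had vehicle levels of 41.0, 42.7 and 42.6 CPM and setanaxib levels of 51.2, 49.1 and 49.5 CPM. All 3 setanaxib libraries were above all 3 vehicle libraries (log2 fold change 0.25, SE 0.07, edgeR adjusted p = 0.453, DESeq2 adjusted p = 0.0134). Anxa4 had 14.5, 15.3 and 14.7 CPM in vehicle libraries against 12.0, 12.7 and 11.8 CPM in setanaxib libraries, again without overlap (log2 fold change -0.28, SE 0.09, edgeR adjusted p = 0.490, DESeq2 adjusted p = 0.0428). Annexin genes therefore had values on both sides of 0, and edgeR called none of them.

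Partners of dysferlin and Trim72 at the sarcolemma had 13 of 14 tested genes below 0, 3 of them at an unadjusted p under 0.05 (median log2 fold change -0.23). Over all genes, 48.4% were below 0 and 4.69% were lower by this rule. Without setanaxib replicate 3, 4 partners were lower by it (median -0.21), against 7.91% of all genes. With all libraries, 6 partners were lower and 1 higher without overlap between groups, against 9.46% and 8.11% of all genes. Myh9, the non-muscle myosin IIA heavy chain, had 208, 246 and 200 CPM in vehicle libraries against 143, 160 and 166 CPM in setanaxib libraries. The groups did not overlap (log2 fold change -0.48, SE 0.12, edgeR adjusted p = 0.383, DESeq2 adjusted p = 0.00550). Pacsin3, a membrane-bending protein of caveolae, and Kif5b, a kinesin heavy chain that carries Trim72 vesicles, also did not overlap, with -0.45 (SE 0.18, edgeR adjusted p = 0.583) for Pacsin3 and -0.38 (SE 0.16, edgeR adjusted p = 0.588) for Kif5b in log2 fold change. Cav3, muscle caveolin, had a log2 fold change of -0.13 (SE 0.23) and, like Dysf and Trim72, was lowest in setanaxib replicate 3. Pacsin3 and Kif5b were lowest there too, whereas other partners, Myh9 among them, were lowest in setanaxib replicate 1.

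Genes of vesicle fusion and lysosome exocytosis had 6 of 9 below 0 (median -0.12), with 2 higher at an unadjusted p under 0.05. Of all genes, 48.4% were below 0 and 3.76% were higher by this rule. Leaving out setanaxib replicate 3 gave the list a median of 0.01. By this rule 1 of its genes was then higher and 1 lower, against 5.67% and 7.91% of all genes. The 2 genes higher with all libraries were the vesicle SNARE Vamp2, with a log2 fold change of 0.26 (SE 0.09), and the lysosomal calcium sensor Syt7, with 0.24 (SE 0.10). Neither passed in edgeR (adjusted p = 0.496 and 0.580). Of the ESCRT genes, which pinch off damaged membrane, 6 of 11 were below 0 and 0 had an unadjusted p under 0.05 (median -0.07). The ESCRT median was 0.05 without setanaxib replicate 3, again with 0 by this rule. Their 2 members of highest level, Pdcd6ip (ALIX) and Chmp4b, stood at -0.10 (SE 0.10) and -0.24 (SE 0.17) in log2 fold change.

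Annexin-binding S100 genes had 5 of 6 below 0 and 0 at an unadjusted p under 0.05 (median -0.29), with S100a1, the heart muscle S100 protein, at -0.31 (SE 0.20) and S100a11 at -0.27 (SE 0.22). Of all genes, 48.4% were below 0. Without setanaxib replicate 3, 2 of the 6 S100 genes were lower at an unadjusted p under 0.05 (median -0.34). In that fit 7.91% of all genes were lower by this rule. All 5 genes of the calpain list, the calcium proteases with their inhibitor calpastatin, were below 0 and none had an unadjusted p under 0.05 (median -0.15). In the fit without setanaxib replicate 3, 1 calpain gene was lower by this rule (median -0.14). Its 2 members of highest level, Capns1 and Cast, stood at -0.19 (SE 0.09) and -0.06 (SE 0.10) in log2 fold change. The scramblase Ano6 had a log2 fold change of 0.05 (SE 0.14). Ano5, its muscle relative, stood at -1.35 (SE 1.28) with 0 counts in setanaxib replicate 3. Without that library, 1 of the 2 scramblases was lower at an unadjusted p under 0.05 (median -0.43). Of 4 other ferlins only Fer1l5 was tested, with a vehicle mean of 1.84 ± 0.123 CPM and a setanaxib mean of 2.16 ± 0.307 CPM (SD, n = 3 each), and Otof, Fer1l4 and Fer1l6 were at 0 counts in all 6 libraries.

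**Figure D4:**
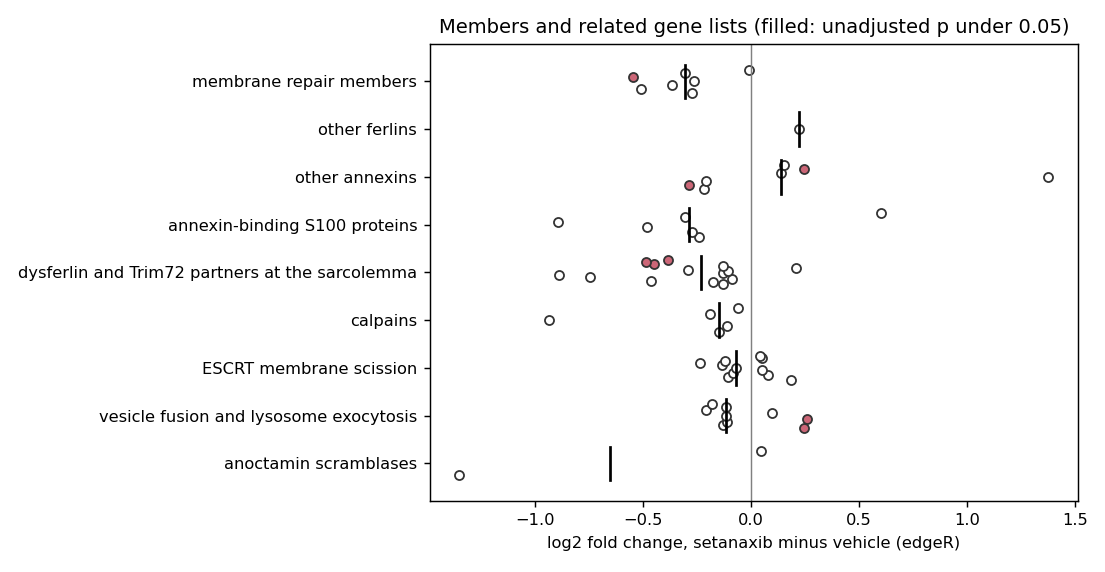
Log2 fold change of setanaxib minus vehicle (x axis) for the 7 members and the tested genes of 8 related lists (y axis); each point is a gene, filled where the unadjusted edgeR p is under 0.05, and the vertical bar is the median of the list. The medians run from -0.65 for 2 scramblases to 0.22 for the 1 other ferlin tested, and no point passed after adjustment over all genes.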

How the data were processed

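The deposited table holds estimated counts per gene, all whole, with no scaling across libraries evident in the authors' totals. The submitters' processing notes list GRCm39, DESeq2 1.42.0, featureCounts 2.0.1, STAR 2.5.4b and FastQC 0.11.9, without roles. Per the file headers, row and column names have the form of StringTie's count script, so 1 estimated count need not be 1 read. The design had assumed raw counts. The estimates were whole already, and the same count test was kept. Per the labels' protocols, 1 µg of total RNA gave paired reads of 150 bases.

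Columns were matched to samples by the number in each title, and groups follow the treatment label. Replicates are numbered in record order and pair nothing. Genes were filtered with filterByExpr (minimum count 10), scaled by TMM and tested in edgeR 4.0.16 (R 4.3.3) by its quasi-likelihood F test over all genes (setanaxib minus vehicle). Tests were two-sided, with p-values adjusted by Benjamini-Hochberg at 0.05. Standard errors and 95% intervals derive from the F statistic. The pipeline was tested on simulated counts with the spread estimated from this table. It called 28 of 100 changes of 2-fold and 68 of 100 of 4-fold, with 6 false calls. The largest member difference in the main fit was 1.46-fold, so 0 of 7 called does not show equal levels. DESeq2 1.42.0 and limma 3.58.1 (voom) were alternatives. Log2 CPM used a prior count of 2. Sequence matches used blastn 2.17.0.

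Members, related lists and markers were chosen with earlier results of these data known. The text names all 7 members and the 3 genes most alike each member, without predicted genes. Of the related genes it names those with an unadjusted p under 0.05, or otherwise the 2 of highest level in a list. S100a10, Cav3, Anxa8 and the untested ferlins are named besides. The other marker lists were skeletal muscle, neutrophil, lymphocyte, smooth muscle and pericyte, mesothelial and Schwann cell, with 1 of 2, 2 of 4, 0 of 2, 6 of 6, 0 of 1 and 1 of 3 tested members below 0.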

Additional observations from a re-analysis of the deposited data

How the results depend on the processing

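The 7 members were refitted under 13 alternatives: other scaling, other filters, DESeq2, limma-voom and each library left out. None passed an adjusted threshold of 0.05 in any of them. The smallest adjusted p was 0.0913, for Anxa2 by DESeq2. Dysf, Myof, Trim72, Anxa1, Anxa2 and Anxa5 kept a negative sign in all 13. Leaving out 1 library gave log2 fold changes of -0.44 to -0.17 for Dysf, -1.04 to -0.19 for Myof, -0.49 to -0.17 for Trim72, -0.42 to -0.09 for Anxa1, -0.67 to -0.41 for Anxa2, -0.39 to -0.18 for Anxa5 and -0.072 to 0.021 for Anxa6, which was above 0 without vehicle replicate 2, setanaxib replicate 1 or setanaxib replicate 3. Anxa6 also turned positive with library totals only (0.019) and with a filter of a mean of at least 1 CPM (0.00023), and the cause was not tested. With all genes, edgeR called 1, DESeq2 504 and limma-voom 0, and edgeR called 0 to 1 with 1 library left out, with 0 without vehicle replicate 1, 2 or 3. Counts over the members were added as alternatives after seeing the data. Members below 0 numbered 6 or 7 in every fit. Members at an unadjusted p under 0.05 numbered 1 with all libraries, 2 with relative log expression factors and with DESeq2 (Anxa2 and Anxa5), 1 with library totals only (Trim72 in place of Anxa2), and 0 to 3 with 1 library left out, with 0 without vehicle replicate 2, 2 without setanaxib replicate 2 and 3 without setanaxib replicate 3. No paired analysis was possible because the labels give no replicate numbers shared between groups. At 1189 or more estimated counts per library, depth did not limit the members.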
